A study of Mus musculus with 9 samples.

Results

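A set of 10 mouse genes of the luminal mammary lineage was followed here: the hormone receptors Esr1, Pgr and Prlr, the luminal factors Gata3, Foxa1, Elf5 and Cited1, the receptor tyrosine kinase gene Kit, and the milk protein genes Csn2 and Csn3. They were taken by name, and 9 of the 10 listed genes had a probe set with their symbol, out of 19938 genes tested. Prlr is not analysed here. Gene expression was measured on 9 arrays, 1 for each of 9 cultured lines grown from tumors of 4T1, a murine breast carcinoma line. Of these lines, 3 came from brain metastases (4T1-BM2), 3 from lung metastases (4T1-LM2) and 3 from primary tumors (4T1-T2), each from a different mouse, and they are called brain, lung and primary lines. No treatment, allele or animal age is given, all lines descend from 4T1 cells, and all were cultured and extracted in parallel. The values therefore describe cells in dish culture. The labels do not say what the name shared by the 3 lines of an origin marks, so p-values measure the spread among these lines, which may share an ancestor.

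In the mammary gland, luminal cells fall into hormone-sensing cells, which carry the estrogen, progesterone and prolactin receptors, and alveolar cells, which make milk. GATA3 and FOXA1 are transcription factors that maintain luminal identity and estrogen receptor function, while ELF5 drives the alveolar branch. KIT marks luminal progenitors, and prolactin acts through JAK2 and STAT5 to switch on casein genes. The 4T1 line is widely used as a model of breast cancer that lacks hormone receptors.

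The proximal promoters of 3 of the genes are shown because these genes cover the range of levels met below: Gata3 lay far above background, and Pgr and Csn2 lay at it. Each is the stretch of 250 bases before the annotated start, on the gene's strand and from 5′ to 3′, taken from RefSeq in build GRCm38.p6. Gata3 lies at chr2:9878601-9878850 on the minus strand, Pgr at chr9:8899583-8899832 on the plus strand and Csn2 at chr5:87699426-87699675 on the minus strand. Capitals mark any match to one of 4 motifs, searched on both strands: TTCNNNGAA, bound by STAT factors, AGATAA, bound by GATA factors, the estrogen response element, which is a pair of inverted GGTCA half-sites 3 bases apart, and TATAAA, an element of many core promoters.
Gata3: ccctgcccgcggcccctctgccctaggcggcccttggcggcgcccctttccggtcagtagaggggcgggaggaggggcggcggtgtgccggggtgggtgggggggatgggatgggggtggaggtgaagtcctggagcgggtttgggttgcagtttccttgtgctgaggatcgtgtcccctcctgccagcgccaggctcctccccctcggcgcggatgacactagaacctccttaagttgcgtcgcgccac
Pgr: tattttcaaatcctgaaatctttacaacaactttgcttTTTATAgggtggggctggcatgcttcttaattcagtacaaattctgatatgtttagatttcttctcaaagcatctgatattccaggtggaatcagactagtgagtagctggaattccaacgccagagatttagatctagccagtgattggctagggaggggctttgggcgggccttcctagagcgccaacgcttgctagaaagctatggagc
Csn2: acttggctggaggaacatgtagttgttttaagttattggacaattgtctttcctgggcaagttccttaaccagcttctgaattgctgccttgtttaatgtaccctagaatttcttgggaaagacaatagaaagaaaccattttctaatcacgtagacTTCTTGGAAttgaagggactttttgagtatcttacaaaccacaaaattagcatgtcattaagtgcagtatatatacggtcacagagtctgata
The Csn2 stretch holds 1 STAT match, 93 to 85 bases before the start, and 7.02% of 32851 mouse promoter stretches of this length hold one. The Pgr stretch holds 1 TATAAA match on the opposite strand, 212 to 207 bases before the start, a motif present in 12.4% of the stretches. The Gata3 stretch has 19 CpG pairs and 70% G and C, against 4 pairs in Pgr and 2 in Csn2, where the median over all stretches is 6. Among other measured genes, Foxa1 has 21 pairs. By start, Kit has 17 and 18, Cited1 30, 9 and 13, Elf5 2 and 8, and Esr1 4 and 7. CpG pairs are given as a description and were not tested against level. An estrogen response element was in none of these 3 stretches and in 0.0639% of all, and AGATAA was in none of them and in 9.99% of all. A match is only a run of letters, and binding was not measured.

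Background was set by the 12147 probe sets without a gene symbol, whose median log2 intensity was 4.21, with a 75th percentile of 6.11 and a 95th percentile of 10.2. These probe sets include bright ones, so the 1027 olfactory receptor genes, which few tissues outside the nose use, were taken as a further reference, with a median of 2.99 and a 95th percentile of 4.45. Of the 9 measured genes, 6 had a mean over the 9 arrays above 4.21 (Esr1, Gata3, Foxa1, Cited1, Kit and Csn3) and 3 lay below it (Pgr, Elf5 and Csn2). Of all 19938 genes tested, 14205 besides Gata3 also had a mean above the background median, so being above it is common. Counts above background given later are to be read beside that share, though some of them ask for every origin or every array. Pgr, Elf5 and Csn2 lay below 4.21 on every array. All 9 means were above the olfactory receptor median, and the same 6 were above its 95th percentile. Only Esr1, Gata3 and Cited1 were above the 75th percentile of the unnamed probe sets. Probes differ in brightness, so each level is read against these distributions and not against another gene.

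**Figure D1:**
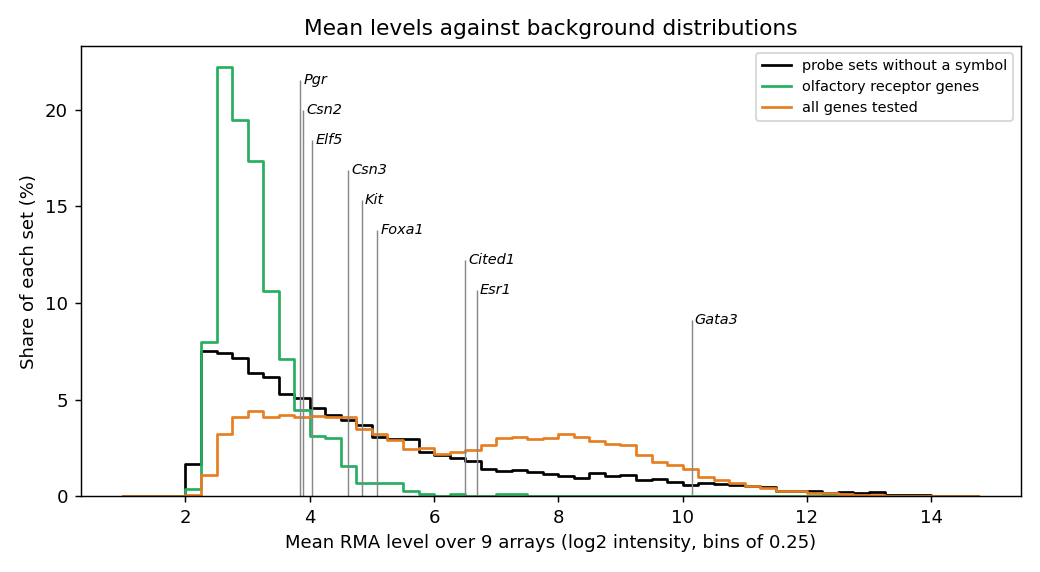
Distribution of mean RMA levels (log2 intensity, x axis, bins of 0.25) as the share of each set in percent (y axis), for probe sets without a symbol (black), olfactory receptor genes (green) and all genes tested (orange). Vertical lines mark the means of the 9 measured genes, with Pgr at 3.85, Csn2 at 3.89 and Elf5 at 4.04 near the low end, and Gata3 at 10.1 far to the right; line heights have no meaning.

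Among the hormone receptors, Esr1, which encodes estrogen receptor alpha, was above background on all 9 arrays. Its level was 6.76, 6.60 and 6.71 in brain lines, 6.64, 6.75 and 6.59 in lung lines, and 6.41, 6.68 and 7.02 in primary lines (log2 intensity). The origins overlapped, and the primary lines held both the lowest and the highest value. The Esr1 mean of 6.68 exceeded 79.8% of the unnamed probe sets and all but 2 of the olfactory receptor genes. Its log2 change was -0.015 ± 0.13 in brain against primary lines (SE, 3 lines per origin, 95% interval -0.31 to 0.28, limma adjusted p = 0.980), and -0.045 ± 0.13 in lung against primary lines (adjusted p = 0.993). Brain against lung lines gave 0.030 ± 0.13 (adjusted p = 0.953).

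Pgr, which encodes the progesterone receptor and is a classical estrogen target, was below the background median on all 9 arrays. It measured 3.87, 3.71 and 3.87 in brain lines, 3.91, 3.71 and 3.95 in lung lines, and 3.82, 3.94 and 3.84 in primary lines. The whole span over the 9 arrays was 0.24, the origins overlapped, and no change is given for a gene at background. Pgr was brighter than 87.0% of the olfactory receptor genes, and 133 of these were brighter than Pgr.

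Gata3 was the only one of the 9 measured genes with an unadjusted p under 0.05 between origins. Its level was 10.02, 9.83 and 9.98 in brain lines, 10.12, 10.25 and 10.11 in lung lines, and 10.19, 10.32 and 10.47 in primary lines. All 3 brain lines lay below all 3 lung lines and all 3 primary lines, while lung and primary lines overlapped. Its mean over all arrays, 10.1, exceeded 94.99% of the unnamed probe sets and every olfactory receptor gene. Gata3 averaged 9.94 ± 0.10 in brain lines, 10.16 ± 0.07 in lung lines and 10.33 ± 0.14 in primary lines (SD, n = 3 each).

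The log2 change of Gata3 was -0.38 ± 0.09 in brain against primary lines (SE; 95% interval -0.59 to -0.18 from the limma model across all genes), a primary over brain ratio of 1.30, with a limma adjusted p = 0.0544, just short of the threshold of 0.05. It was -0.22 ± 0.09 in brain against lung lines (95% interval -0.42 to -0.014, adjusted p = 0.298) and -0.17 ± 0.09 in lung against primary lines (95% interval -0.37 to 0.034, adjusted p = 0.975). The limma F test over the 3 origins gave an adjusted p = 0.119, and that test called 0 of the 9 genes and 2.36% of all genes. The brain against primary call depended on the settings, and only 4 of 18 alternatives made it. Those had an adjusted p of 0.0299 with quantile normalization again, 0.0402 without the dimmest 33.3% of genes, 0.0396 with an intensity trend and 0.0488 with array weights. With each array centred on its median it was 0.136, and the highest in any fit was 0.150. The adjusted p stayed between 0.0562 and 0.148 when any 1 line was left out. Groups that did not overlap were common: brain and primary lines were apart in 17.8% of all genes (8.47% with brain lines lower), brain and lung lines in 16.9% (8.63% with brain lines lower), and lung and primary lines in 8.71% of all genes and 0 of the 9.

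The genes whose levels over the 9 arrays were most like those of Gata3 were Fam102b (Pearson r = 0.962), Slfn8 (r = 0.961) and Bmi1 (r = 0.961), out of 14205 genes above background. These are the highest of many correlations over 9 arrays that share their origins, and are a description only. Bmi1, which encodes a Polycomb protein, measured 9.56, 9.44 and 9.59 in brain lines, 9.68, 9.97 and 9.69 in lung lines, and 9.83, 9.99 and 10.04 in primary lines. Its lowest 3 values were those of the brain lines.

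Foxa1, a pioneer factor that opens chromatin for the estrogen receptor, stood at 5.07, 5.09 and 5.07 in brain lines, 5.17, 5.01 and 5.07 in lung lines, and 5.07, 5.07 and 5.13 in primary lines. Its values spanned 0.16 over the 9 arrays, and 5 arrays, from all 3 origins, carried the same deposited value. Repeated values were common in the table, where 8590 of 19938 genes (43.1%) had 9 different ones. The mean of 5.08 was above 64.0% of the unnamed probe sets. The log2 change of Foxa1 in brain against primary lines was -0.011 ± 0.06 (95% interval -0.16 to 0.13, limma adjusted p = 0.967).

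Cited1, a transcriptional co-activator that binds the estrogen receptor, was above background in every line. It measured 6.54, 6.17 and 6.54 in brain lines, 6.61, 6.59 and 6.49 in lung lines, and 6.56, 6.47 and 6.54 in primary lines. Brain line 2 held the lowest value, 8 lines lay between 6.47 and 6.61, and the origins overlapped. The log2 change was -0.10 ± 0.10 in brain against primary lines (95% interval -0.33 to 0.12, limma adjusted p = 0.722), and -0.15 ± 0.10 in brain against lung lines (adjusted p = 0.566). Lung against primary lines gave 0.043 ± 0.10 (adjusted p = 0.992). Without brain line 2 the brain against primary value was 0.016.

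Elf5, the alveolar factor, was below the background median on all arrays. It stood at 3.96, 4.05 and 3.90 in brain lines, 4.05, 4.06 and 4.05 in lung lines, and 4.05, 4.05 and 4.15 in primary lines. The 3 brain lines held the lowest values, the highest of them just under the next line, and 4 arrays shared 1 deposited value. Elf5 and Gata3 were the 2 measured genes whose brain lines did not overlap the other lines. Over all genes, brain lines did not overlap primary lines in 17.8% and lung lines in 16.9%. Elf5 is at background and no change is given.

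Kit, the stem cell factor receptor, was above the background median in each line. It was 4.88, 4.86 and 4.85 in brain lines, 5.21, 4.69 and 4.65 in lung lines, and 4.80, 4.87 and 4.74 in primary lines. Lung line 1 held the highest value and the other 2 lung lines the lowest. The log2 change was 0.063 ± 0.13 in brain against primary lines (95% interval -0.23 to 0.35, limma adjusted p = 0.902), and 0.048 ± 0.13 in lung against primary lines (adjusted p = 0.993), where it was -0.13 without lung line 1. Mast cells also carry Kit, and of 6 mast cell markers 5 were below background in every line and 1 (Tpsb2, at 4.56 to 4.59 by origin) above it, with a mean over the list between 3.30 and 3.39 on every array.

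Of the milk protein genes, Csn2, which encodes beta-casein, was below the background median on all arrays. It measured 3.83, 3.79 and 3.96 in brain lines, 3.99, 3.83 and 4.10 in lung lines, and 3.85, 3.83 and 3.83 in primary lines. Its promoter stretch is the one with the STAT match shown above. A stretch before an Esr1 start, not shown, holds a STAT match too, 188 to 180 bases before that start. Csn2 was brighter than 87.7% of the olfactory receptor genes, and 126 of these were brighter than Csn2. The origins overlapped throughout.

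Csn3, which encodes the micelle-stabilising kappa-casein, varied most among the 9 measured genes, over 1.32 log2 units. It was 4.53, 4.12 and 5.01 in brain lines, 4.17, 4.53 and 4.67 in lung lines, and 4.57, 4.53 and 5.43 in primary lines. The 2 highest values were those of primary line 3 and brain line 3, and 7 of 9 arrays exceeded the background median. Its log2 change was -0.29 ± 0.27 in brain against primary lines (95% interval -0.91 to 0.32, limma adjusted p = 0.718) and -0.39 ± 0.27 in lung against primary lines (95% interval -1.003 to 0.23, adjusted p = 0.975). Without primary line 3 these values were 0.0028 and -0.094, and in brain against lung lines the change was 0.097 ± 0.27 (adjusted p = 0.923).

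**Figure D2:**
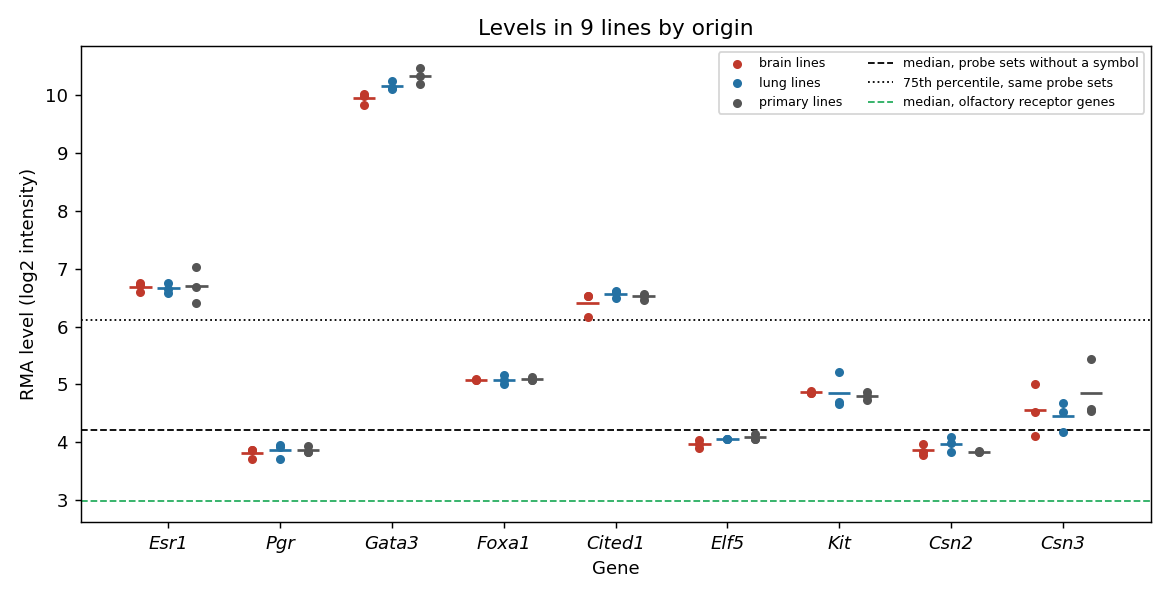
RMA levels (log2 intensity, y axis) of the 9 measured genes (x axis) in brain, lung and primary lines, left to right within each gene, with a point for each line and a bar for the mean of 3 lines. Dashed lines give the medians of the unnamed probe sets (black, 4.21) and of the olfactory receptor genes (green, 2.99), and the dotted line the 75th percentile of the unnamed probe sets (6.11); Pgr, Elf5 and Csn2 lie below the black dashed line in every line.

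Across the 9 genes, limma called 0 between brain and primary lines, where 3.13% of all 19938 genes were called. It called 0 between brain and lung lines (1.98% of all genes) and 0 between lung and primary lines (0% of all genes). At an unadjusted p under 0.05 there was 1 gene in brain against primary lines and 1 in brain against lung lines, Gata3 both times, where 15.8% and 14.9% of all genes reached it, and 0 in lung against primary lines (4.74%). The median log2 change of the 9 genes was -0.050 in brain against primary lines, against 0.0049 over all genes. It was -0.0071 in lung against primary lines, against 0.013 over all genes, and -0.043 in brain against lung lines, against -0.0096. In each of the 3 comparisons the median gene was Pgr, which is at background, so these medians describe no measurable change. The same model without moderated variances also called 0 of the 9 in each comparison. With 3 lines on each side the smallest two-sided p of an exact permutation test is 0.1, so that test was not used.

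**Figure D3:**
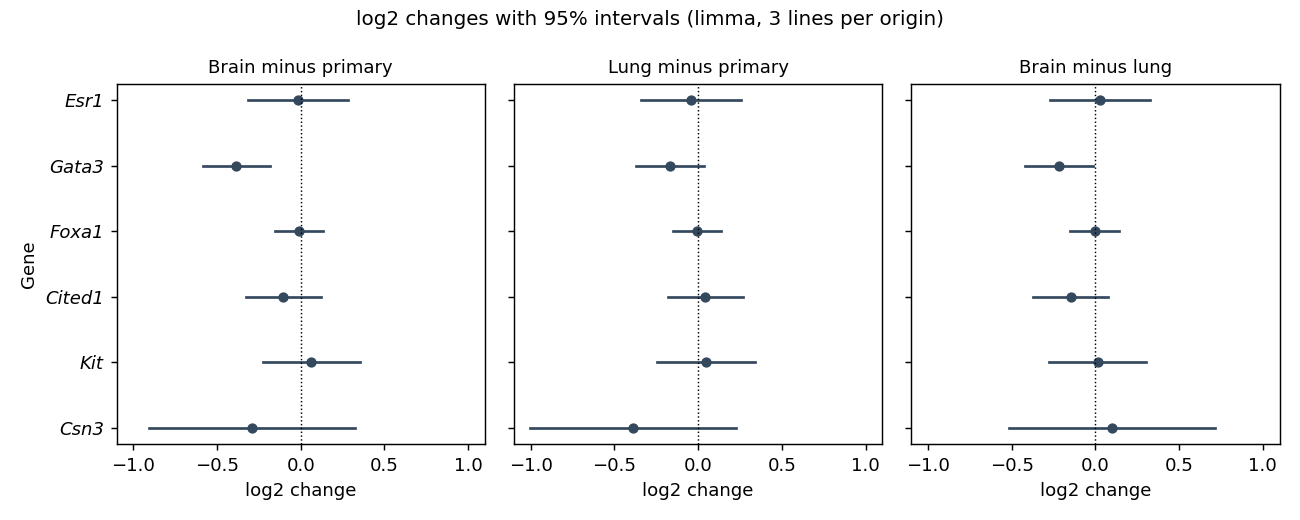
log2 changes (x axis) with 95% intervals from limma for the 6 genes above background in every origin (y axis), in brain minus primary, lung minus primary and brain minus lung lines. The interval of Gata3 excludes 0 in both comparisons with brain lines (-0.59 to -0.18 and -0.42 to -0.014) before adjustment over all genes, that of Csn3 is the widest, and the intervals of the other genes include 0.

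Genes downstream of the receptors were read from lists of known targets. Of 12 measured genes listed as estrogen targets, 1 rose and 1 fell in brain against primary lines and 10 did not pass, where 1.56% of all genes rose and 1.57% fell, with a median log2 change of -0.027. Car12, a membrane carbonic anhydrase gene, measured 8.82, 8.79 and 9.13 in brain lines, 7.77, 7.81 and 7.99 in lung lines, and 7.54, 7.72 and 7.24 in primary lines. It rose by 1.41 ± 0.13 in brain against primary lines and by 1.06 ± 0.13 in brain against lung lines (limma adjusted p = 0.00155 and 0.00686), and kept both calls when any 1 line was left out. Myb, a transcription factor gene, fell by 0.43 ± 0.07 in brain against primary lines (adjusted p = 0.0135), and leaving out primary line 2 ended that call (adjusted p = 0.0569). Greb1, an early estrogen-induced gene, averaged 3.75 in brain lines, 3.67 in lung lines and 3.66 in primary lines, below background on all arrays.

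Of the progesterone targets, 2 were measured and both were above background on all arrays. Tnfsf11, which encodes the paracrine signal RANKL, averaged 7.17 in brain lines, 7.26 in lung lines and 7.21 in primary lines. Wnt4 averaged 5.41 in brain lines, 5.48 in lung lines and 5.38 in primary lines. Neither gene passed in any comparison, where at most 3.13% of all genes passed.

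A list for prolactin signaling, which includes the growth hormone receptor gene, was measured although Csn2 was at background. All 8 genes were above background on every array. None passed in any comparison, where at most 3.13% of all genes passed. Jak2, the receptor-bound kinase, averaged 9.47 in brain lines, 9.84 in lung lines and 10.03 in primary lines (log2 change in brain against primary lines -0.56, limma adjusted p = 0.238). Stat5a averaged 7.04 in brain lines, 7.32 in lung lines and 7.23 in primary lines, and Stat5b 7.73, 7.76 and 7.79. Socs3, a feedback inhibitor, had the smallest F test p of the list (adjusted p = 0.213) and averaged 7.38 in brain lines, 7.67 in lung lines and 7.38 in primary lines. The hormone gene Prl itself was below background in every line, at 3.25, 3.23 and 3.19 in brain, lung and primary lines.

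Of 13 further milk genes, 5 were above background in all origins and 0 passed in any comparison, where at most 3.13% of all genes passed. The caseins Csn1s1, Csn1s2a and Csn1s2b were below background on every array, with origin means between 2.64 and 3.48. Wap, the whey acidic protein gene, averaged 5.37 in brain lines, 5.19 in lung lines and 5.27 in primary lines. Those above background included genes with roles in other tissues, such as the lipid droplet gene Plin2 (10.17 in brain, 9.80 in lung and 9.73 in primary lines). Mfge8, a milk fat globule gene that many cells use, had the smallest F test p (adjusted p = 0.149) and averaged 10.77 in brain lines, 11.10 in lung lines and 11.16 in primary lines.

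Transcription factors of a further list, not all of them particular to luminal cells, changed in both directions. In brain against primary lines 1 of 20 rose, 3 fell and 16 did not pass, where 1.56% of all genes rose and 1.57% fell, and the median log2 change was -0.030. Elf3, an epithelial relative of Elf5, rose by 0.57 ± 0.11 (limma adjusted p = 0.0243). Tfap2a fell by 0.55 ± 0.08 (adjusted p = 0.00816), and Cebpb, a regulator of alveolar development, fell by 0.49 ± 0.09 (adjusted p = 0.0239). The other fall was in Sox9, chosen here after its values were seen, at 9.11, 9.07 and 9.06 in brain lines, 9.37, 9.40 and 9.25 in lung lines, and 9.57, 9.58 and 9.55 in primary lines. Its 3 origins did not overlap at all, and it fell by 0.49 in brain against primary lines (adjusted p = 0.00518), a call that held under every alternative run.

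In brain against lung lines Elf3 and Grhl2, an epithelial factor, rose by 0.54 and 0.51 (limma adjusted p = 0.0352 and 0.0389), and Cebpb fell by 0.51 (adjusted p = 0.0253). Here 2 of 20 rose, 1 fell and 17 did not pass, where 0.913% of all genes rose and 1.07% fell. Tfap2a kept its call against primary lines when any 1 line was left out. Elf3 lost it without any brain or any primary line (adjusted p 0.0525 to 0.0837), and Cebpb without any brain line or without primary line 2 or 3 (0.0558 to 0.0858). Against lung lines, Elf3 lost its call without any line but primary line 3 (0.0550 to 0.117), Grhl2 without any line but primary line 1 (0.0512 to 0.120), and Cebpb without any brain line or lung line 1 or 2 (0.0624 to 0.110). With each array centred on its median, Elf3 and Grhl2 also lost the call against lung lines.

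Among 24 other nuclear receptor genes, 1 fell in brain against primary lines and 0 rose, and the same gene fell in brain against lung lines, where 1.57% and 1.07% of all genes fell in these comparisons. This was Nr2f1, an orphan receptor also called COUP-TF1, with 7.03, 6.82 and 6.61 in brain lines, 7.43, 7.50 and 7.64 in lung lines, and 7.60, 7.66 and 7.96 in primary lines. It fell by 0.92 ± 0.13 in brain against primary lines (limma adjusted p = 0.00597), and that call held without any 1 line. Against lung lines it fell by 0.70 ± 0.13 (adjusted p = 0.0232), a call lost without brain line 2 or 3 or any lung line (0.0681 to 0.0958). Esr2, the beta estrogen receptor gene, averaged 5.34 in brain lines, 5.17 in lung lines and 5.26 in primary lines. The glucocorticoid receptor gene Nr3c1 averaged 8.23 in brain lines, 8.20 in lung lines and 7.93 in primary lines (adjusted p = 0.103 in brain against primary lines). All 10 measured receptor co-regulators were above background and none passed, where at most 3.13% of all genes passed in a comparison. Cited2 had the smallest F test p of that list (adjusted p = 0.223).

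**Figure D4:**
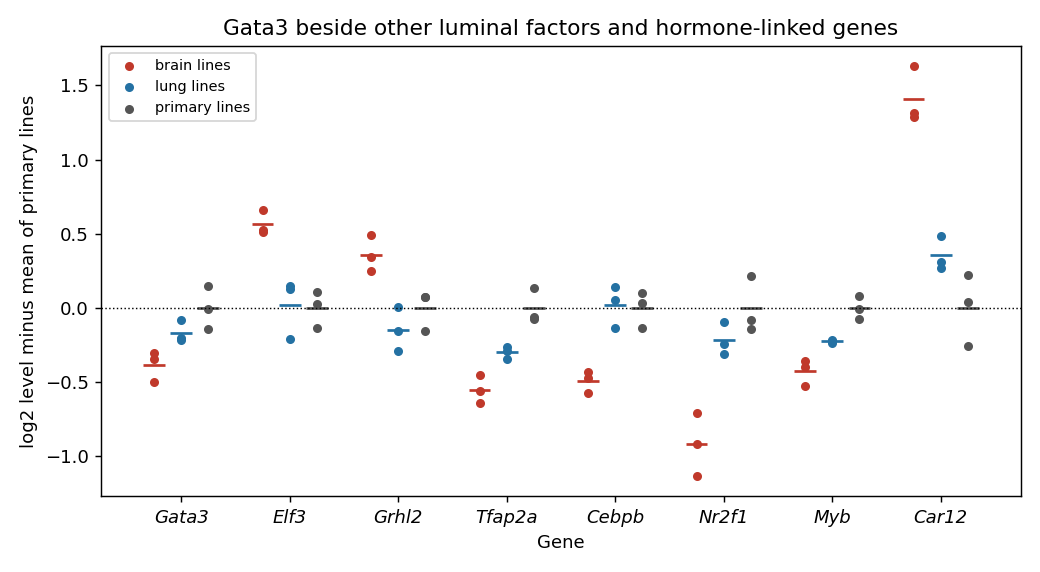
Levels minus the primary line mean (log2, y axis) for Gata3 and 7 genes from the lists of luminal factors, nuclear receptors and estrogen targets that passed in a comparison (x axis), with a point per line and a bar for the mean of 3 lines. Brain lines lie below primary lines for Gata3 (not called, limma adjusted p = 0.0544), Tfap2a, Cebpb, Nr2f1 and Myb. They lie above primary lines for Elf3, Car12 and Grhl2, the last not called in this comparison (limma adjusted p = 0.102).

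Luminal keratins and surface genes were read as a list, of which 13 of 15 were above background in all origins. Muc1 and Prom1 had origin means below it. In brain, lung and primary lines these were 3.92, 4.20 and 4.11 for Muc1, and 3.88, 3.86 and 3.80 for Prom1. Krt8 averaged 12.78 in brain lines, 12.93 in lung lines and 12.87 in primary lines, and Krt18 12.66, 12.71 and 12.59. In brain against primary lines 3 of the 15 rose, 1 fell and 11 did not pass, where 1.56% of all genes rose and 1.57% fell. The list's mean level lay between 9.08 and 9.17 in brain lines, 8.62 and 8.86 in lung lines, and 8.50 and 8.79 in primary lines. Of 15 basal markers 3 rose in brain against primary lines and 12 did not pass, where 1.56% of all genes rose, with a list mean of 5.97 to 6.05 in brain lines, 5.80 to 5.87 in lung lines and 5.82 to 5.86 in primary lines. Of these basal markers, 13 were also above background in all origins. Where limma called at most 3.13% of all genes in a comparison, lists of brain cells, lung cells, leukocytes, fibroblasts and endothelium held 0 called genes. Their list means overlapped between the origins, as for brain cells at 4.55 to 4.64 in brain lines, 4.61 to 4.75 in lung lines and 4.63 to 4.65 in primary lines. The smallest F test p in those lists were those of Mbp, Foxj1, Cd3e and Pdgfrb (adjusted p = 0.296, 0.238, 0.799 and 0.283), and Ms4a2 had the smallest of the mast cell list (0.690). Above background in all origins were 5 of 7 brain cell genes, 4 of 7 lung cell genes, 2 of 7 leukocyte genes and 3 of 9 fibroblast and endothelium genes. Being above the background median therefore does not by itself mark a cell type. The part of other cells in these levels was not tested.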

How the data were processed

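RNA from 9 lines was hybridised to Affymetrix mouse gene arrays, 1 per line. The deposited values are log2 intensities made by the authors with RMA, per the submitters' processing notes. RMA in general corrects background, quantile normalizes arrays and summarises each probe set. The log base was read from the values' range; RMA's software version and the build were not given in the sources used here. Precision is limited by the number of arrays. The table held 35557 probe sets, of which 21789 had 1 symbol, 1621 several and 12147 none in the platform's annotation. The brightest probe set by mean stood for each of 19938 genes; each of the 9 measured genes had only 1. The genes and lists were chosen with earlier results of these data known. Of 174 different listed symbols, 164 matched, and the rest are not analysed here.

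One limma 3.58.1 model (R 4.3.3, lmFit and eBayes, two-sided) held all 9 arrays with a coefficient per origin, and p-values were adjusted by Benjamini-Hochberg over all genes, with calls under 0.05. Genes with an origin mean under the background median get no change. The naming rule took all listed genes, up to 4 called genes per further list or else the one with the smallest F test p, and the 3 genes most correlated with the listed gene of smallest F test p. Outside this rule, Greb1, Tnfsf11, Jak2, Stat5a, Stat5b, Prl, the caseins Csn1s1, Csn1s2a and Csn1s2b, Wap, Plin2, Esr2, Nr3c1, Krt8, Krt18, Tpsb2, Sox9 and Cd24a were chosen from the lists after their values were seen. Acta2, Vim, Krt5, Trp63, Muc1 and Prom1 were chosen in the same way. Between brain and lung lines, deviations from the group means correlated at 0.284, 0.130 and 0.241 for mice of the same number, all over 0.1. They correlated at 0.067, -0.00074 and -0.044 between brain and primary lines, and at 0.221, 0.079 and 0.0080 between lung and primary lines. From these data alone, the number was taken as a block in 1 alternative fit, which held all 9 arrays. Per the series' design text, the 9 mice were separate animals. The fit was tested on simulated data with independent errors, which do not hold the correlations given above, so that test cannot speak to them. Alternatives were renormalization, dim gene filters, variance priors, array weights, the block, 6-array fits, all probe sets and leaving out each line.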

Additional observations from a re-analysis of the deposited data

How the results depend on the processing

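None of the measured genes was called in lung against primary or brain against lung lines under any alternative run. In brain against primary lines the count was 1, Gata3, with quantile normalization again, without the dimmest 33.3% of genes, with the intensity trend and with array weights, and 0 in every fit that left out 1 line. Of 6 genes above background, 3 stayed above the 75th percentile and 0 above the 95th percentile of unnamed probe sets. Of 324 alternative log2 changes of these 6, 30 had the opposite sign, none of them larger than 0.144 and none called. In brain against primary lines these were Esr1 (0.022 with quantile normalization again, 0.029 with median centring, 0.024 with array weights, and -0.16 to 0.14 leaving out lines), Foxa1 (0.031 and 0.033 with the first 2, -0.021 to 0.0075), Cited1 (-0.17 to 0.016) and Csn3 (-0.52 to 0.0028). In lung against primary lines they were Esr1 (0.027 with array weights, -0.19 to 0.11), Foxa1 (0.0065 with quantile normalization, 0.010 with centring, -0.050 to 0.031) and Kit (-0.062 with array weights, -0.13 to 0.15). In brain against lung lines they were Esr1 (-0.0034 with array weights, -0.0077 to 0.076), Foxa1 (0.025, 0.022 and 0.029 with quantile normalization, centring and weights, -0.043 to 0.039), Csn3 (-0.068 with weights, -0.13 to 0.32) and Kit (-0.084 to 0.19). The causes were not tested.

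Counts over all genes were mostly lower with fewer arrays or no moderation. Against 624, 395 and 470 genes called (brain against primary, brain against lung, F test), leaving out 1 line gave 273 to 556, 69 to 417 and 160 to 370. Unmoderated variances gave 51, 3 and 2, and 1 for lung against primary lines instead of 0, and fits of only the 6 arrays compared gave 197 and 107. In the 6-array fits, Myb, Cldn3, Krt19, Cdh1 and Procr lost their calls against primary lines, and Elf3, Grhl2, Nr2f1 and Cldn7 against lung lines. Cebpb and Krt17 lost their calls in both comparisons there, and Procr also lost its call with every probe set used. With the mouse number as a replicate block the counts were 839, 566 and 604, Gata3 had adjusted p = 0.0687 against primary and 0.309 against lung lines, and the call of no listed gene changed; of the further genes named, Cdh1 and Cldn7 lost theirs under it (0.0538 and 0.0594). With 3 lines per origin, the widest 95% interval here, that of Csn3, spans more than 1 log2 unit.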

Other observations

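Single basal markers and the ligand of Kit were not described above. Over the 15 basal markers the median log2 change in brain against primary lines was 0.018, so the 3 called genes do not stand for the list. The change was -1.15 for Acta2 and -0.26 for Vim, whose brain and primary lines did not overlap but which did not pass (limma adjusted p = 0.122 and 0.108). Vim was above background on all arrays and averaged 13.07 in brain lines, 13.30 in lung lines and 13.33 in primary lines. Krt5 and Trp63 changed by 0.16 and 0.027 (adjusted p = 0.619 and 0.938). Krt14, a basal keratin gene, measured 7.71, 8.23 and 8.24 in brain lines, 5.87, 6.20 and 6.59 in lung lines, and 6.80, 6.33 and 6.19 in primary lines. It rose by 1.62 ± 0.22 in brain against primary lines and by 1.84 ± 0.22 in brain against lung lines (SE, limma adjusted p = 0.00568 and 0.00631), calls that held without any 1 line. Krt17 rose with it against primary lines, by 1.55 ± 0.27 (adjusted p = 0.0153, lost without brain line 2 or primary line 2 or 3, at 0.0560 to 0.0657), and by 1.498 in brain against lung lines (adjusted p = 0.0230, lost without brain line 2 or 3 or any lung line, at 0.0531 to 0.103). Procr, a surface receptor gene, rose by 0.79 in brain against primary lines (adjusted p = 0.0482), lost without brain line 2 or 3, any lung line, or primary line 1 or 3 (0.0702 to 0.141). Kitl, which encodes stem cell factor, was above background on all arrays, at 7.99, 8.24 and 7.57 in brain lines, 7.95, 8.07 and 7.96 in lung lines, and 8.39, 8.52 and 8.22 in primary lines. Brain and primary lines overlapped, and the log2 change of -0.44 ± 0.15 did not pass (adjusted p = 0.165). Cd24a, a luminal surface gene picked after its values were seen, fell by 0.58 ± 0.07 in brain against primary lines (adjusted p = 0.00491), while Cldn3, a tight junction gene, rose by 1.43 ± 0.26 (adjusted p = 0.0205, lost without brain line 2 or 3, at 0.0598 to 0.0712). Krt19, a luminal keratin gene, rose by 1.27 (adjusted p = 0.0262, lost without any brain line or lung line 2 or 3, at 0.0528 to 0.0884), and Cdh1, which encodes E-cadherin, by 0.90 (adjusted p = 0.0386, lost without any line but primary line 1, at 0.0514 to 0.113, and at 0.0538 with the replicate block). Cldn7, a further tight junction gene, rose by 1.54 in brain against lung lines (adjusted p = 0.0442, lost without any line but primary lines 1 and 3, at 0.0574 to 0.152, and at 0.0594 with the replicate block). Without moderated variances, of the called genes named here from the lists only Car12, Sox9 and Cd24a kept a call, each in brain against primary lines.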
